A study of Homo sapiens with 6 samples.

Results

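The genes described are 10 of the Notch pathway, of 19775 genes that the arrays read: the receptors NOTCH1, NOTCH2 and NOTCH3, the ligands JAG1, JAG2 and DLL1, and the target genes HES1, HES4, HES5 and HEY1. They were chosen by name from the pathway with earlier results of these data known, the rise of HES5 among them, and their probe sets were ordered by mean signal over the 6 arrays. Calls among them are therefore a description and support nothing. Messenger RNA was measured 48 h after transfection of cells labelled HepG2, a human line from a liver tumour, on 3 arrays labelled RNF43 siRNA and 3 control arrays that carried a negative control siRNA. Both groups went through the same lipid transfection, and 1 siRNA duplex was used against RNF43, a ubiquitin ligase in the membrane that takes Frizzled off the cell surface and thereby damps Wnt signals. The 3 arrays of a group are labelled as biological replicates. Whether each had a culture of its own is not said, and p-values then reflect the variation among these arrays only, which can be partly technical.

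Notch receptors are membrane proteins that a ligand of the Jagged or Delta family on a neighbouring cell activates. Pulling by the ligand opens the receptor to ADAM proteases and then to gamma-secretase, and the freed intracellular domain joins the DNA-binding protein RBPJ and a Mastermind coactivator to switch on target genes. The best known targets are the HES and HEY genes, which encode basic helix-loop-helix repressors. In liver, JAG1 and NOTCH2 direct the formation of bile ducts, and loss of either causes Alagille syndrome.

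Some facts of the whole series bear on every value below. RNF43 went against its label. Its single probe set read 8.19, 8.22 and 8.41 (log2 signal) on the RNF43 siRNA arrays, against 7.65, 7.79 and 7.45 on the control arrays, which put it 1.56-fold above the controls (log2 0.64, SE 0.14; limma, adjusted p = 0.0098). By exact permutation (two-sided) p was 0.1, and no lower p is possible with 3 arrays a side. Dropping replicate 3 of each group left 0.48 (adjusted p = 0.0534, from 0.00585 to 0.0534 across the alternatives). Directions are therefore those of the arrays labelled RNF43 siRNA, not of a measured loss of RNF43 mRNA. The liver label was not borne out by its markers either: of 7 hepatocyte genes read, ALB, APOA1, TTR, FGB, TF and SERPINA1 lay below the signal filter and AFP alone lay above it. The medians of the arrays were 5.89 to 6.02, and their number limits the precision.

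A probe set was called dim where its mean log2 signal over the 6 arrays lay at or below 5.83, the middle of all probe sets, and dim probe sets were not tested. The 10 genes had 25 probe sets that named 1 gene, of which 18 passed this filter and 7 were dim. DLL1 had dim probe sets only, so 9 genes were tested. The nearest above the filter was HES5, 0.08 over it at a mean of 5.91, which passed through the RNF43 siRNA arrays alone. The nearest below was the JAG1 probe set 209097_s_at, 1.15 under it at 4.68. HES5 had to differ in order to pass and its control values were not shown to be above background, so its values are given as a description, with no p. Levels of different probe sets are not comparable with each other, so each was compared only with itself.

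HES1, HES4 and JAG2 were modestly higher on the RNF43 siRNA arrays, and HES5 was above the filter there and below it on the control arrays. Of the 9 tested genes, 4 were called higher and 0 lower (limma, adjusted p under 0.05). Without HES5 these were 3 higher of 8, where 22.6% of all 11853 tested genes were called, 11.5% higher and 11.1% lower. The groups did not overlap for 6 of the 9 genes, 5 of them higher and 1 lower (4 and 1 without HES5), where 19.1% of all tested genes lay wholly higher and 19.8% wholly lower. The median log2 difference of the 9 genes was 0.32, or 0.29 without HES5, and that of all tested genes was 0.00 after rounding. Across the 27306 probe sets tested one by one 15.5% were called. Among the 18 Notch probe sets 2 were called, those of HES4 and HES5, so that of HES4 alone without HES5. Of these 18, 15 had a higher and 3 a lower mean on the RNF43 siRNA arrays, and the like share over all probe sets was not computed. By gene, 7 of the 9 had a higher and 2 a lower mean, where 49.5% of all tested genes had a higher mean. HES5 is 1 of the 15 and 1 of the 7, and probe sets of the same gene share transcripts and are not replicates.

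**Figure D1:**
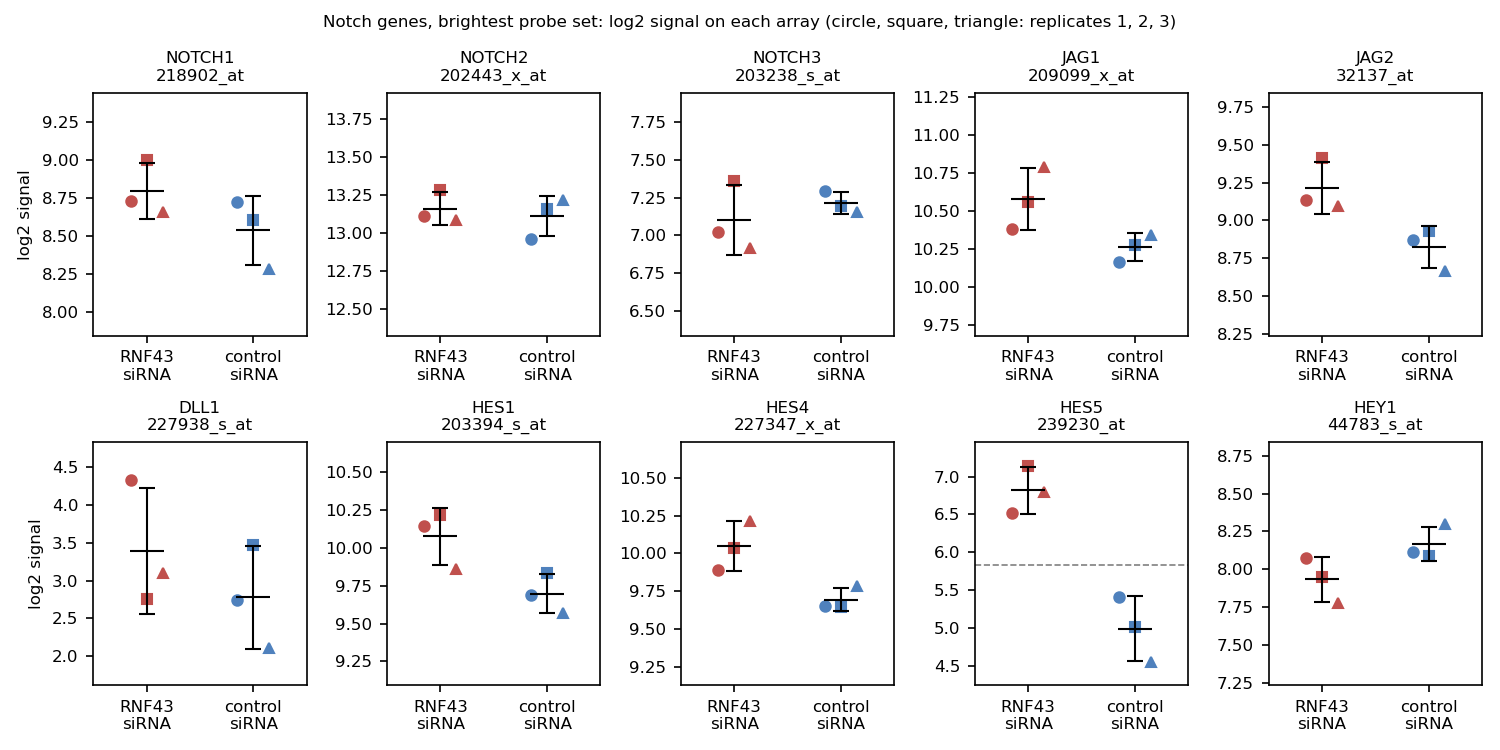
Log2 signal (vertical axis) of the brightest probe set of each Notch gene on the 3 RNF43 siRNA arrays (red, left) and the 3 control siRNA arrays (blue, right), with mean and SD as bars and the filter at 5.83 as a dashed line where it is in range; axis spans differ between panels. The HES5 values lie on either side of the filter. Those of HES1, HES4, JAG1 and JAG2 do not overlap, with the RNF43 siRNA arrays higher. Those of HEY1 do not overlap either, with the RNF43 siRNA arrays lower. Those of NOTCH1, NOTCH2, NOTCH3 and DLL1 overlap.

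Among the ligands, JAG2 passed the test and JAG1 did not. JAG2, a Jagged ligand, read 9.14, 9.41 and 9.10 (log2 signal) on the RNF43 siRNA arrays, against 8.87, 8.93 and 8.67 on the control arrays, on its brightest probe set, 32137_at. Every RNF43 siRNA array lay above every control array, with JAG2 1.31-fold higher (log2 difference 0.39, SE 0.12, adjusted p = 0.0387). Its other probe set, 209784_s_at, read 8.80, 8.65 and 7.84 on the RNF43 siRNA arrays, against 8.33, 8.30 and 8.05 on the control arrays. There the third RNF43 siRNA array lay below all control arrays, and the log2 difference of 0.20 did not pass (adjusted p = 0.628 over probe sets). The JAG2 call was also lost without any 1 array other than RNF43 siRNA replicate 3, with log2 differences of 0.29 to 0.45, and when both probe sets were averaged (adjusted p = 0.288, from 0.00812 to 0.288 across the alternatives).

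JAG1, the ligand of bile duct formation, had 4 probe sets above the filter, and all 4 had higher means on the RNF43 siRNA arrays. The brightest, 209099_x_at, read 10.38, 10.56 and 10.79 on the RNF43 siRNA arrays, against 10.17, 10.27 and 10.34 on the control arrays. The groups were separate, and the log2 difference of 0.32 (SE 0.11, 95% interval 0.08 to 0.55) had an adjusted p of 0.0579 and did not pass. It passed after median centring of the arrays (adjusted p = 0.0223), with array weights (0.026) and without RNF43 siRNA replicate 1 (0.0282), within 0.00387 to 0.48 over all alternatives. Probe set 216268_s_at read 10.15, 10.22 and 10.19 on the RNF43 siRNA arrays, against 9.77, 10.14 and 9.97 on the control arrays. Probe set 209098_s_at read 7.29, 6.92 and 7.40 on the RNF43 siRNA arrays, against 6.69, 6.77 and 6.60 on the control arrays. These groups were also separate, with log2 differences of 0.23 and 0.52 that did not pass over probe sets (adjusted p = 0.181 and 0.127). The fourth, 231183_s_at, differed by 0.04 and its groups overlapped. The dim 209097_s_at and 229924_s_at also overlapped, with log2 differences of 0.78 and -0.40. DLL1, a Delta ligand, was dim on both probe sets, at 3.39 ± 0.83 on the RNF43 siRNA arrays and 2.78 ± 0.68 on the control arrays (SD, n = 3 each) for the brighter. The dimmer had a log2 difference of -0.49, and the groups overlapped on both.

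No receptor passed the test. NOTCH1 read 8.73, 9.00 and 8.65 on the RNF43 siRNA arrays, against 8.72, 8.61 and 8.28 on the control arrays. The groups overlapped through RNF43 siRNA replicate 3, and the log2 difference was 0.26 (95% interval -0.06 to 0.57, adjusted p = 0.238). Its dim probe set, 223508_at, overlapped too, with a difference of -0.04. NOTCH2, the receptor of bile duct formation, read 13.11, 13.29 and 13.08 on its brightest probe set on the RNF43 siRNA arrays, against 12.96, 13.15 and 13.22 on the control arrays. Its difference of 0.05 (95% interval -0.14 to 0.23, adjusted p = 0.726) was smaller than the spread within either group.

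The NOTCH2 probe sets differed in how tightly the arrays agreed. Probe set 212377_s_at read 12.89, 12.91 and 12.88 on the RNF43 siRNA arrays, against 12.76, 12.79 and 12.71 on the control arrays. The groups were separate, but the log2 difference of 0.14 did not pass (SE 0.06, adjusted p = 0.136 over probe sets). Both further NOTCH2 probe sets above the filter, 210756_s_at and 202445_s_at, had differences of 0.16 and 0.14 with overlapping groups. A further probe set, 227067_x_at, is annotated to NOTCH2 and 4 near-identical NOTCH2NL genes, so its difference of 0.06 cannot be given to NOTCH2. NOTCH3 read 7.03, 7.36 and 6.92 on the RNF43 siRNA arrays, against 7.30, 7.19 and 7.16 on the control arrays. Its groups overlapped, with a log2 difference of -0.11 (95% interval -0.53 to 0.31, adjusted p = 0.721). The dim NOTCH3 probe set 203237_s_at had the opposite sign, 0.85, and overlapped as well.

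HES1 and HES4 passed the test, and HES5 is described without one. HES5, a repressor best known from the nervous system, has a single probe set, 239230_at. It read 6.52, 7.14 and 6.79 (log2 signal) on the RNF43 siRNA arrays, against 5.41, 5.02 and 4.56 on the control arrays. All RNF43 siRNA values lay above the filter and all control values below it. The means were 6.82 ± 0.31 on the RNF43 siRNA arrays and 4.99 ± 0.43 on the control arrays (SD, n = 3 each), a log2 difference of 1.82. Its size depends on signals near background, and after adding 64 to each linear signal it came to 0.88.

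HES1, the most widely expressed target, rose 1.30-fold on its brightest probe set. That probe set, 203394_s_at, read 10.15, 10.22 and 9.86 on the RNF43 siRNA arrays, against 9.69, 9.83 and 9.57 on the control arrays (log2 difference 0.38, SE 0.11, adjusted p = 0.0344). Probe set 203395_s_at read 9.17, 9.04 and 8.85 on the RNF43 siRNA arrays, against 8.68, 8.85 and 8.48 on the control arrays. In the first the groups were separate by a narrow margin at RNF43 siRNA replicate 3, and in the second RNF43 siRNA replicate 3 and control replicate 2 were all but equal. The second probe set had a log2 difference of 0.35 that did not pass over probe sets (adjusted p = 0.118). The HES1 call was lost without RNF43 siRNA replicate 1 or 2 or control replicate 1 or 3, without an intensity trend and on averaging its probe sets, which takes in the dim 203393_at (adjusted p 0.00203 to 0.172 over all alternatives).

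HES4 rose 1.28-fold. Its single probe set, 227347_x_at, read 9.89, 10.04 and 10.22 on the RNF43 siRNA arrays, against 9.65, 9.65 and 9.78 on the control arrays (log2 difference 0.35, SE 0.10, adjusted p = 0.0278). The groups were separate, with RNF43 siRNA replicate 1 nearest to the controls. The ending _x_at marks probes that can bind related transcripts. The HES4 call was lost without RNF43 siRNA replicate 2 or 3, without control replicate 1 or 2 and without an intensity trend (adjusted p 0.00351 to 0.0919 over all alternatives).

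HEY1, a repressor of the sister family, did not follow the HES genes in sign. Its brighter probe set, 44783_s_at, read 8.07, 7.95 and 7.78 on the RNF43 siRNA arrays, against 8.12, 8.09 and 8.30 on the control arrays. Every RNF43 siRNA array lay below every control array, but the log2 difference of -0.23 did not pass (95% interval -0.54 to 0.07, adjusted p = 0.26). The other, 218839_at, read 7.02, 6.23 and 7.28 on the RNF43 siRNA arrays, against 7.18, 7.21 and 7.05 on the control arrays, with overlapping groups and a difference of -0.30 (adjusted p = 0.514 over probe sets). Whether the HEY1 difference departs from those of the HES genes was not tested.

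**Figure D2:**
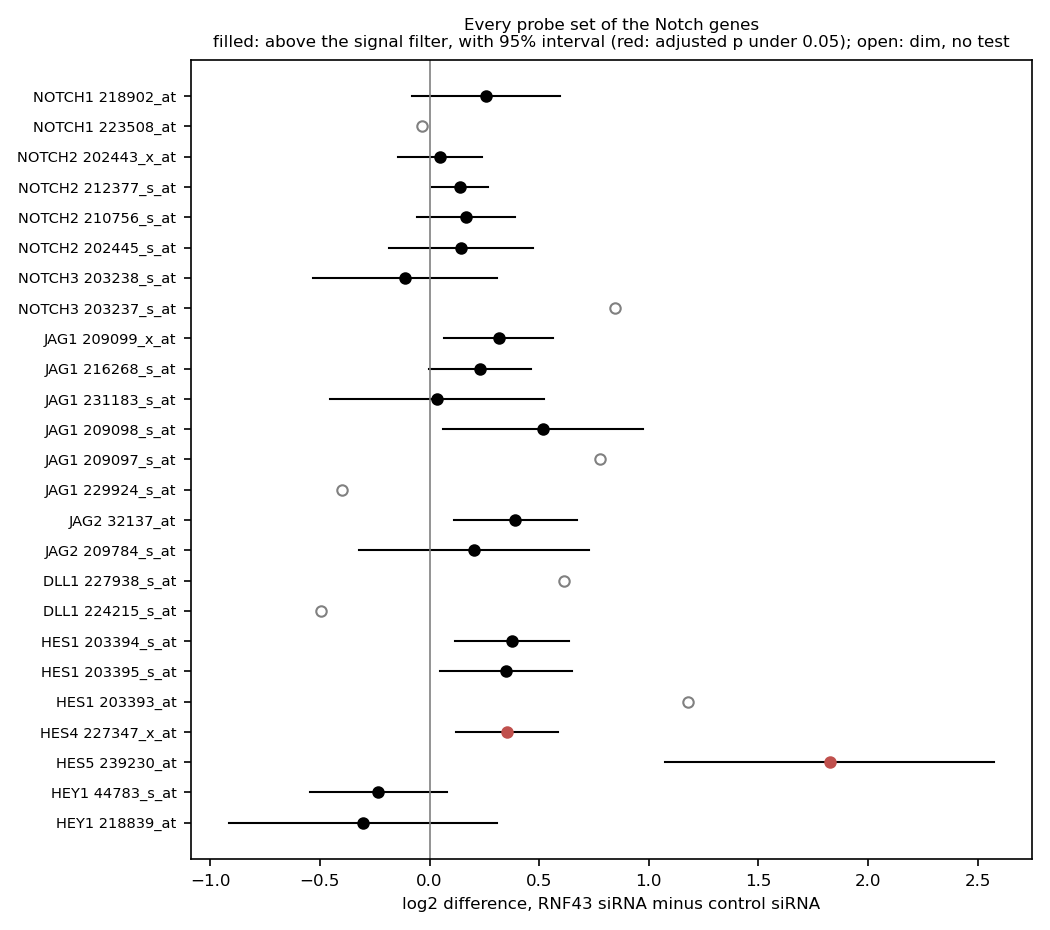
Log2 difference (horizontal axis, RNF43 siRNA minus control siRNA) of all 25 probe sets of the Notch genes, with 95% intervals for the 18 above the filter and open points without a test for the 7 dim ones. The probe sets of HES4 and HES5 (red) were called over probe sets, HES5 with control values below the filter, and the intervals of the brightest NOTCH1, NOTCH2, NOTCH3 and HEY1 probe sets include 0.

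The promoters of the 3 HES genes are shown because HES genes are direct targets of RBPJ in the textbook pathway. RefSeq's promoter table (GRCh38.p14) held 8 of the 10 genes, without DLL1 and HEY1. The letters TGGGAA, the core of the RBPJ site, were searched on both strands (TTCCCA on the other) in the 250 bases before each start. They stood before HES1, HES4 and HES5 and in 0 of the other 5 promoters, while 20.8% of all 35116 promoters in the table held them. Each HES promoter had a match on the gene's strand within 90 bases of the start, as 3.96% of all promoters did. That window was set after the matches were seen. In the lines below, which run 5′ to 3′ up to the base before the start, capitals mark the matches.
HES1, plus strand, chr3:194135898-194136147: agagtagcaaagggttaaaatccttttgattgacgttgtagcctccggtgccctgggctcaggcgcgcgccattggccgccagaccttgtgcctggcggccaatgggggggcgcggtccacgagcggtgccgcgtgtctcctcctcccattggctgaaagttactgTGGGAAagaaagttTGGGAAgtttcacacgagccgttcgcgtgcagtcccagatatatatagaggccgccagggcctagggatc
HES4, minus strand, chr1:1000098-1000347: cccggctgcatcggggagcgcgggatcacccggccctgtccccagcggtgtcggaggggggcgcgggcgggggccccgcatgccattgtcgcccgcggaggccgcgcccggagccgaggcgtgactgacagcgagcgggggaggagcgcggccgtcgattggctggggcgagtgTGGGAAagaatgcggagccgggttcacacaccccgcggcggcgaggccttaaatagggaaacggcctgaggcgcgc
HES5, minus strand, chr1:2530264-2530513: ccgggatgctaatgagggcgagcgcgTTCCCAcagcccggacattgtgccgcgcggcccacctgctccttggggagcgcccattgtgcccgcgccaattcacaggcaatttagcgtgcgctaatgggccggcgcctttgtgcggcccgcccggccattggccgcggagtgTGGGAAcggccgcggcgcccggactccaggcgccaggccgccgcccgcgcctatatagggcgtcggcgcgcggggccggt

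The matches of HES1 began 84 and 70 bases before the start, both on the gene's strand. In HES4 the single match began 76 bases before it. HES5 had 1 match beginning 80 bases before the start, and another on the opposite strand from 224 to 219 bases before it. The N-box, the core that HES repressors bind, was searched as CACNAG, which reads CTNGTG on the other strand. Its matches overlapped none of these. They occurred 3 times before HES1, once before NOTCH3 and in none of the other 6 promoters, against 32.0% of all promoters with at least 1 match. A match describes letters, not a bound site.

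Other genes of the pathway moved in both directions, with 16 higher and 5 lower among 70 tested (limma, adjusted p under 0.05). The 11 lists, sorted by role, held 91 genes, of which 84 were read and 14 of these were dim. The shares were 22.9% higher and 7.14% lower, beside the 11.5% and 11.1% of all tested genes, and the median log2 difference was 0.02. Of the 21 called genes, 9 lost the call when some 1 array was left out. The call was kept by 4 (EOGT, HDAC1, DTX4 and CD24) in every alternative run that gave them a value. EOGT, HDAC1 and DTX4 have a single probe set, so averaging could not change their values. EOGT and CD24 had no value once _x_at and _s_at probe sets were dropped. Averaging the probe sets of a gene took the call from LFNG, NCSTN, CBL, AAK1, CCND1, KRT7 and SPP1, among others, with the values given at each. Averages take in dim probe sets where a gene has them, and LFNG, NCSTN and SPP1 had only dim ones beside the brightest.

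None of the listed genes passed that present the ligand at the sending cell or cut the receptor outside the membrane. Among the receptors and ligands outside the 10, DLL3 and DLK2 were tested and 0 passed, and NOTCH4, DLL4 and DLK1 were dim. Of the genes of ligand ubiquitination and endocytosis, 0 of 4 passed, and of the convertase and ADAM list 0 of 5. Glycosylation of the receptor by fringe and related enzymes tunes which ligand it answers. Of 9 tested genes of that list 2 rose and 7 did not pass. LFNG, lunatic fringe, read 8.57, 8.80 and 8.88 on the RNF43 siRNA arrays, against 8.03, 7.84 and 8.34 on the control arrays, and rose 1.60-fold (log2 difference 0.68, SE 0.15, adjusted p = 0.009). On averaging its probe sets LFNG stood at 0.99 and did not pass (0.123, range 0.00127 to 0.123). EOGT, which adds N-acetylglucosamine to EGF repeats, rose 1.41-fold (adjusted p = 0.00577).

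Gamma-secretase subunits went both ways, with 1 of 5 tested members risen and 1 fallen. NCSTN, nicastrin, which holds the substrate, read 9.24, 9.48 and 9.55 on the RNF43 siRNA arrays, against 10.06, 9.88 and 9.95 on the control arrays, and fell 1.46-fold (log2 difference -0.54, adjusted p = 0.00425), which did not pass on averaging (-0.50, adjusted p = 0.0814, range 6.98e-04 to 0.0814). PSEN2, a catalytic presenilin, rose 1.27-fold (adjusted p = 0.0263), a call lost without RNF43 siRNA replicate 2 or 3 or control replicate 1 or 2 (0.00842 to 0.139 over all alternatives).

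In the nuclear complex 1 of 8 tested genes rose and 1 fell. KAT2B, an acetyltransferase, rose 1.46-fold (adjusted p = 0.0101), which was lost without RNF43 siRNA replicate 2 (0.052, range 3.51e-04 to 0.052). MAML2, a Mastermind coactivator, fell 1.28-fold (adjusted p = 0.0208), and was lost without RNF43 siRNA replicate 2 or any 1 control array (0.0128 to 0.235). RBPJ itself, named after its value was seen, had 11.09 ± 0.04 on the RNF43 siRNA arrays and 11.30 ± 0.12 on the control arrays (SD, n = 3 each), and its difference of -0.21 did not pass (adjusted p = 0.0766). It passed on averaging its probe sets, at -0.46 (0.0494, range over all alternatives 0.014 to 0.2).

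Of 9 tested corepressor genes 2 rose and 1 fell. HDAC1, a histone deacetylase, read 13.10, 13.07 and 13.06 on the RNF43 siRNA arrays, against 13.53, 13.41 and 13.55 on the control arrays, and fell 1.34-fold (log2 difference -0.42, SE 0.06, adjusted p = 9.98e-04). CTBP1 and SIN3A, which link repressors to deacetylases, rose 1.21-fold and 1.27-fold (adjusted p = 0.0284 and 0.0327). Both calls were lost without any 1 array other than control replicate 3, and on averaging the probe sets the CTBP1 difference was -0.11.

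Regulators of the receptor by endocytosis and ubiquitin rose in 4 of 11 tested genes and fell in 1. CBL, a ubiquitin ligase of many receptors, read 9.76, 9.95 and 10.05 on the RNF43 siRNA arrays, against 9.12, 9.00 and 9.14 on the control arrays, and rose 1.78-fold (log2 difference 0.83, SE 0.10, adjusted p = 2.66e-04). AAK1, a kinase of endocytosis, rose 1.37-fold (adjusted p = 0.00259), NUMBL, a Numb-like adaptor, 1.44-fold (0.00519) and DTX4, a Deltex ubiquitin ligase, 1.60-fold (0.00741). On averaging their probe sets CBL (0.65, adjusted p = 0.196), AAK1 (0.68, 0.0849) and NUMBL (0.06, 0.852, against 0.52 on its brightest) did not pass. Among the other tested probe sets, 1 of 2 for CBL, 1 of 3 for AAK1 and 0 of 1 for NUMBL were also called higher over probe sets. ITCH, a ligase that marks Notch for degradation, fell 1.27-fold (adjusted p = 0.0181). ITCH was named after its value was seen, and of its 5 other tested probe sets 0 were called in either direction. Its call was lost without RNF43 siRNA replicate 2 or control replicate 2 and on averaging its probe sets. On its brightest probe set with no _x or _s in the ending the difference was 0.23, which did not pass.

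Reported Notch targets outside the HES and HEY families rose in 4 of 9 tested genes and fell in 0, and for HES2 and HEYL, the 2 tested genes of those families outside the 10, the differences of -0.58 and -0.27 did not pass. NRARP, a feedback inhibitor of the Notch complex, read 8.83, 8.57 and 8.90 on the RNF43 siRNA arrays, against 8.05, 7.72 and 8.41 on the control arrays. The groups were separate, and NRARP rose 1.63-fold (log2 difference 0.71, SE 0.17, adjusted p = 0.0147), a call lost without RNF43 siRNA replicate 1 (0.0534, range 7.45e-04 to 0.0534). The cell cycle gene CCND1 rose 1.90-fold (adjusted p = 7.41e-05), ID3 1.26-fold (0.0174) and ID1 1.33-fold (0.0231). On averaging its 2 probe sets CCND1 stood at 0.61, against 0.93 on its brightest, and did not pass (adjusted p = 0.0524, range 1.47e-06 to 0.0524). The other CCND1 probe set also lay above the filter and was not called over probe sets. The ID3 call was lost without RNF43 siRNA replicate 1, and that of ID1 without RNF43 siRNA replicate 1 or 2 or control replicate 3. CCND1, ID1 and ID3 also answer to other pathways.

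Biliary lineage genes, which Notch promotes in liver progenitors, gave 2 risen and 1 fallen of 7 tested. KRT7, a keratin of bile duct cells, rose 1.61-fold (adjusted p = 9.13e-05) and CD24 1.39-fold (0.00416), while SPP1, osteopontin, read 6.56, 7.09 and 7.57 on the RNF43 siRNA arrays, against 8.90, 9.05 and 8.74 on the control arrays, and fell 3.53-fold (3.27e-04). SOX9, on both this list and that of the targets, had a difference of -0.40 that did not pass (adjusted p = 0.431). KRT19 and CFTR were dim. The KRT7 call was lost once _x_at and _s_at probe sets were dropped (0.51, adjusted p = 0.168) and on averaging (0.69, 0.129). SPP1 stood at -1.19 on averaging, against -1.82 on its brightest probe set, and did not pass (adjusted p = 0.0682, range 1.1e-05 to 0.0682).

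**Figure D3:**
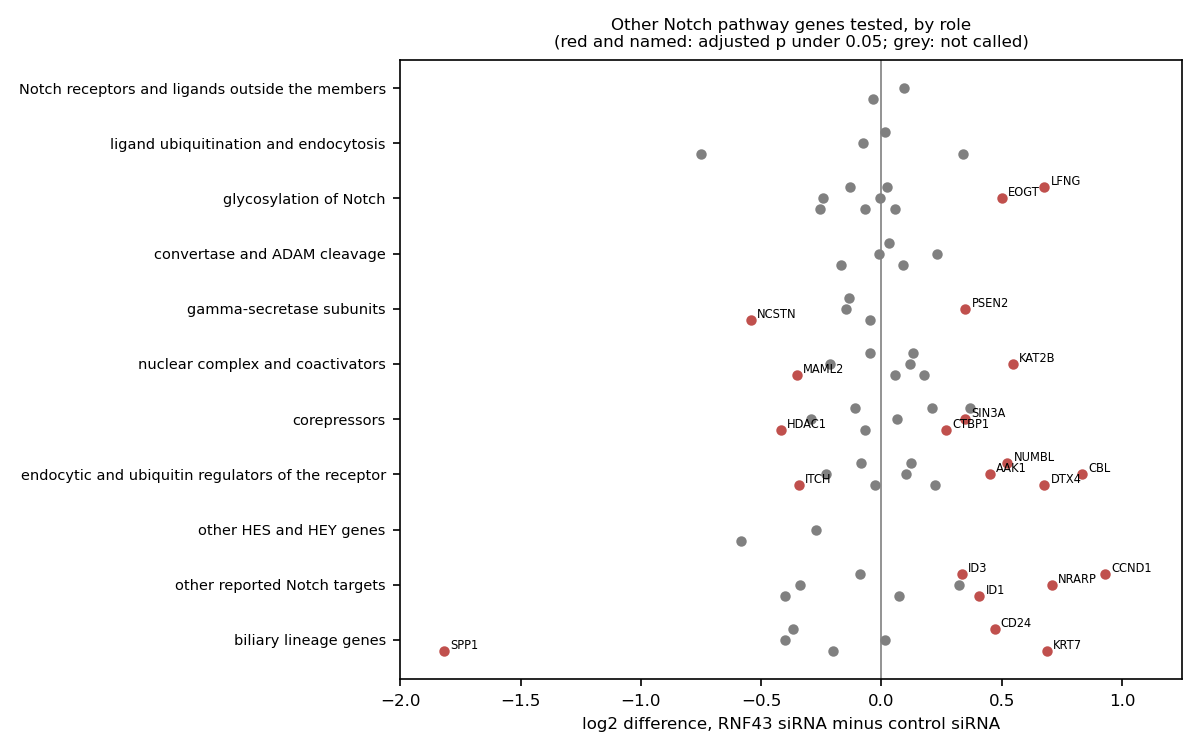
Log2 difference (horizontal axis, RNF43 siRNA minus control siRNA) of each tested gene of the 11 lists, 1 row per list and small vertical offsets for legibility only; SOX9 appears in 2 rows. Called genes (red, named) lie on both sides of 0, with 16 higher and 5 lower.

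Markers of other cell types moved with the groups in part. Summed linear signals of 6 fibroblast and stellate markers were 2743 to 3066 on the RNF43 siRNA arrays and 3852 to 4391 on the control arrays, with 4 of the 6 above the filter. For 6 endothelial markers, cells rich in Notch ligands, the sums were 292 to 316 on the RNF43 siRNA arrays and 256 to 300.2 on the control arrays, and PECAM1 alone lay above the filter. All 4 immune markers read were dim. Of 3 cholangiocyte markers KRT7 alone lay above the filter, and their sums did not overlap, at 13028 to 15250 on the RNF43 siRNA arrays and 8690 to 8977 on the control arrays. These sums were nearly all KRT7. Its mean log2 signal was 13.80 on the RNF43 siRNA arrays and 13.11 on the control arrays, against 2.63 and 2.24 for KRT19 and 3.96 and 2.97 for CFTR. Of the 2 other tested KRT7 probe sets 0 were called over probe sets. In RNA of whole cultures fewer cells of a type and less RNA per cell cannot be told apart, and the part of these markers in the Notch values was not tested.

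The genes most like each called member were found by the root mean square distance over the 6 arrays between log2 signals centred on each gene's mean. For HES5, whose own values spread by 0.962 on that measure, they were RARRES2 at 0.268, LIFR at 0.271 and CACUL1 at 0.278. For HES1 they were EMC10, NSDHL and LOXL2 at 0.0373 to 0.0401, and for HES4 LYPLA1, LRRC40 and ZXDB at 0.0246 to 0.0343. For JAG2 they were LRIG1, ATXN7 and KLF5 at 0.0231 to 0.0473. No other Notch gene was among these 12.

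**Figure D4:**
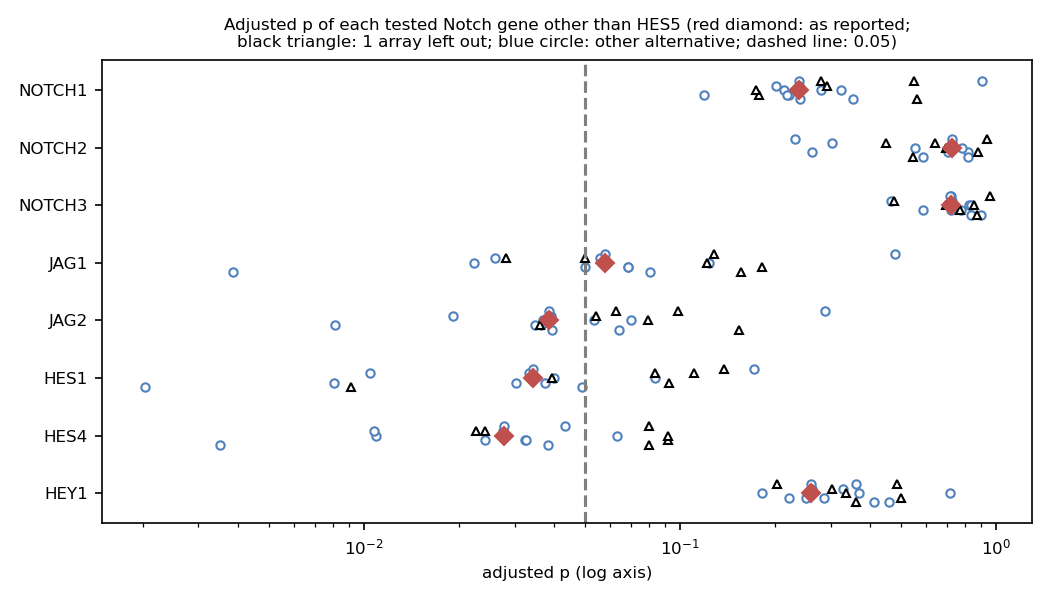
Adjusted p (horizontal log axis) of each tested Notch gene other than HES5 as reported (red diamonds), with 1 array left out (black triangles) and under the other alternatives (blue circles), against the threshold of 0.05 (dashed). Those of HES1, HES4, JAG1 and JAG2 fall on both sides, and all NOTCH1, NOTCH2, NOTCH3 and HEY1 values lie right of it.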

How the data were processed

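The authors deposited 1 table of log2 signals, 54613 probe sets on each of 6 HG-U133 Plus 2.0 arrays, and the submitters' processing notes name MAS5, which sets perfect-match against mismatch probes. Its version is not given in the sources used here. Read as log2, the deposited arrays had linear means that, after trimming 2% at each end, lay between 497 and 497.2, so the arrays had been scaled before deposit. Dim probe sets are noisy after mismatch subtraction, and scaling hides a shift shared by all transcripts. Values were used as deposited, and arrays were assigned by title, 3 per group. No pair of arrays shared more than 0.00183% of its values above the floor at 0.

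Probe sets were named from the platform annotation with symbols brought up to RefSeq (GRCh38.p14 table): 41091 probe sets named 1 gene, 1801 several and 11721 none. Each gene was read by its brightest probe set naming 1 gene, and tested if the mean log2 signal lay in the upper 50% of probe sets (above 5.83), 11853 genes in all. A second fit took the 27306 probe sets above 5.83. Both were fitted in R 4.3.3 with limma 3.58.1 (eBayes with trend, after lmFit, two-sided, Benjamini-Hochberg over everything tested, threshold 0.05), and the steps were tested on simulated data. Means are given ± SD, and SE and 95% intervals are limma's. Promoter sequences came from RefSeq, 250 bases before each start.

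The members, the lists of other pathway genes and the rules were chosen with earlier results of these data known. The text names RNF43, every member, up to 4 called genes per list with the smallest adjusted p, and the 3 genes most like each called member. ITCH, RBPJ, the uncalled list genes and those of the other observations were named after their values were seen. The alternatives covered scaling, added signal, filters, the variance model, array weights, probe set choice, annotation, a replicate block and arrays left out. Detection calls were not used here.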

Additional observations from a re-analysis of the deposited data

How the results depend on the processing

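The differences of HES1, HES4, JAG1 and JAG2 were positive in all alternatives that gave them a value, while their calls were not stable. HES5 has no value with the upper 30% of probe sets, and its calls elsewhere are not evidence of stability, since its control values lay below the filter. It is included in each count of called Notch genes below, and is the 1 called without an intensity trend. When all probe sets of a gene were averaged, 1536 genes, 2 of the Notch genes and 8 of the other pathway genes were called, where the reported counts were 2684, 4 and 21. After dropping _x_at and _s_at probe sets, which leaves 4 of the Notch genes to test, 2643 probe sets (of 4219), 2 Notch genes and 10 other pathway genes were called. Without an intensity trend 2787 probe sets and 1 Notch gene were called, with log2 differences that no longer passed of 0.39 for JAG2 (adjusted p = 0.0699), 0.38 for HES1 (0.0834) and 0.35 for HES4 (0.0634). Averaging put HES1 at 0.63 (0.172) and JAG2 at 0.30 (0.288). Unfiltered, JAG2 did not pass either (0.39, adjusted p = 0.064), nor with both arrays numbered 3 left out (0.37, 0.0534), where RNF43 was at 0.48 (0.0534). JAG1 passed at 0.35 with arrays centred on the median and at 0.31 with array weights. Signs turned for NOTCH2 without RNF43 siRNA replicate 2 (-0.014) or control replicate 1 (-0.026), on averaging for NOTCH3 (0.37), CTBP1 (-0.11), EMC10 (-0.61) and ZXDB (-0.73). After dropping _x_at and _s_at probe sets they turned for SIN3A (-0.15) and ITCH (0.23). The cause of these changes was not tested.

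Leaving out 1 array at a time gave 1739 to 2653 called genes, 2230 to 4462 called probe sets, 1 to 3 called Notch genes and 14 to 20 other pathway genes. The Notch counts include HES5, which was the only Notch gene called without RNF43 siRNA replicate 2 or without control replicate 1. The lowest count of genes was that without RNF43 siRNA replicate 2. Log2 differences then ran from 0.55 to 0.72 for RNF43, 0.21 to 0.41 for JAG1, 0.29 to 0.45 for JAG2, 0.31 to 0.48 for HES1, 0.27 to 0.43 for HES4, 1.61 to 2.03 for HES5, -0.30 to -0.16 for HEY1, 0.13 to 0.35 for NOTCH1, -0.026 to 0.10 for NOTCH2, -0.24 to -0.021 for NOTCH3 and 0.15 to 0.96 for DLL1.

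Same-numbered arrays deviated together with r = 0.162, 0.0772 and 0.267 across genes, and differently numbered ones with r from -0.211 to 0.0859. Each RNF43 siRNA array was closest to the control array of its number, while control replicate 2 was closest to RNF43 siRNA replicate 1 (0.0859). No pairing was stated, so the reported fit has no block, and whether the arrays were made in pairs was not tested. The replicate block raised the called probe sets to 6370 and the genes to 3908, and JAG1 passed with it at 0.32 (adjusted p = 0.00387), as did RBPJ at -0.21 (0.014). Dim values, and MAS5 signals near background, limit HES5 and DLL1.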

Other observations

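Some dim probe sets of the pathway lay wholly apart between the groups. They are given as values without a test, since they were singled out after their values were seen. None was shown to be above background. Of the 14 dim genes of the lists, HEY2, ONECUT1, DTX1 and EPN1 lay apart on their brightest probe set and the rest overlapped. Among the 7 dim probe sets of the 10 members 1 lay apart and 6 overlapped. The share lying apart over all dim probe sets was not computed. HEY2, a HEY repressor of the heart and vessels, read 4.99 ± 0.69 (log2 signal) on the RNF43 siRNA arrays and 2.85 ± 0.18 on the control arrays (SD, n = 3 each). ONECUT1, a transcription factor of liver and bile duct development, read 5.11 ± 1.02 on the RNF43 siRNA arrays and 2.22 ± 1.35 on the control arrays. DTX1, a Deltex ligase, had the opposite sign, at 4.01 ± 0.81 on the RNF43 siRNA arrays and 5.21 ± 0.09 on the control arrays. So did EPN1, an epsin of ligand endocytosis, at 4.52 ± 1.75 on the RNF43 siRNA arrays and 6.67 ± 0.32 on the control arrays. All control values of EPN1 (6.59, 7.02 and 6.40) lay above the filter, and it was dim through its RNF43 siRNA values, with a mean of 5.60 over all arrays. The dim HES1 probe set 203393_at read 4.93, 2.54 and 2.39 on the RNF43 siRNA arrays, against 1.79, 2.21 and 2.32 on the control arrays, so that its difference rests on RNF43 siRNA replicate 1.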
